A study of Drosophila melanogaster with 66 samples.

Results

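Ribosomal occupancy, the share of an mRNA that travels with polysomes, was compared between Drosophila melanogaster embryos aged 8-10 hours and embryos aged 0-2 hours after egg laying. The comparison uses 32 of the 66 arrays in the series: 2 untreated sucrose gradients from 8-10 hours and 2 from 0-2 hours, with 8 arrays per gradient. They were chosen by their labels alone, as the gradients of these ages that were run without EDTA, the magnesium chelator that takes ribosomes off mRNA. All embryos were whole Canton S wild type animals, collected over 2 hours and then aged, and were treated with cycloheximide, which stalls ribosomes on mRNA, before and during lysis. At 8-10 hours the embryo retracts its germ band and begins to form organs, whereas at 0-2 hours it passes through rapid nuclear divisions in a common cytoplasm and lives largely on mRNA supplied by the mother. Nuclei and debris were spun out before the gradients, so mRNA in insoluble complexes was not measured. Each gradient gave 1 array for the pool of fractions 1-5, which hold free mRNA, ribosomal subunits and single ribosomes, and 1 for each of fractions 6 to 12, which hold polysomes of growing size. Gradients of 4-6 hours, EDTA gradients and unfractionated RNA enter only where they are named.

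An mRNA that is being translated usually carries several ribosomes and sediments deep into a sucrose gradient, while an mRNA held in a repressed ribonucleoprotein particle stays near the top. A fly egg is stocked with maternal mRNAs before fertilization, many of them masked until egg activation or until later in embryonic life, and the embryo then clears maternal mRNA and replaces it with its own transcripts. Because polysome loading is set mainly at initiation, the share of an mRNA in polysomes is commonly read as a measure of how much of it is in use, although particles of similar size without active ribosomes sediment alike.

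For each gradient and probe set the signal was turned from log2 to linear scale, that of the pool was multiplied by 5 because the pool is the mean of 5 fractions, and occupancy was taken as the percentage of the summed signal found in fractions 6-12. The Logit is the natural logarithm of signal in fractions 6-12 over signal in fractions 1-5, so a Logit difference of 1 is an e-fold change in that ratio. The deposited values were normalized array by array, which does not keep the amount of RNA in each fraction: occupancies are relative to other mRNAs in the same gradient and are not molecules counted. A probe set with equal signal on all arrays, such as one that reads only background, takes an occupancy of 58.3% (Logit 0.34), so that an mRNA near background in one period is drawn to this value. For this reason the mean log2 signal over a period's gradient arrays (the gradient signal, with a median over all probe sets of 4.81 at 8-10 hours and 4.64 at 0-2 hours) is given for many of the genes in which it is low. Embryos were lysed whole, and fewer cells of a type or less RNA per cell cannot be told apart.

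Of 18769 probe sets that are not controls, 10358 had a gradient signal in the top 50% in at least 1 of the 3 periods and were tested, and they represent 8012 genes with 1 symbol. The age labels were checked in unfractionated RNA. Log2 values of bcd, a maternal anterior determinant, were 6.12 and 6.89 at 8-10 hours and 10.8 and 10.6 at 0-2 hours, and those of osk, a posterior determinant, were 6.73 and 8.20 at 8-10 hours against 12.5 and 12.4 at 0-2 hours. The neuronal gene elav had 11.6 and 11.0 at 8-10 hours and 5.33 and 5.27 at 0-2 hours, and the glial gene repo had 8.80 and 8.83 at 8-10 hours and 4.18 and 4.43 at 0-2 hours. Odorant, gustatory and other genes that embryos do not use had a median of 3.57 and 3.57 at 8-10 hours against 3.71 and 3.79 at 0-2 hours. Maternal and zygotic markers therefore lay on the sides that the labels give.

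At 8-10 hours occupancies were gathered around the middle, and at 0-2 hours they were spread to both ends. The median occupancy over tested probe sets was 60.6% and 62.9% in the gradients of 8-10 hours, against 58.5% and 58.9% in those of 0-2 hours. The SD of occupancy over probe sets was 12.6 and 12.4 percentage points at 8-10 hours and 16.1 and 16.5 points at 0-2 hours. Occupancy was below 40% for 5.04% and 3.29% of probe sets at 8-10 hours and for 13.7% and 12.3% at 0-2 hours. It was above 80% for 7.90% and 8.85% of probe sets at 8-10 hours and for 12.4% and 13.9% at 0-2 hours. Neither the SD nor either tail share overlapped between the periods, but 2 gradients against 2 cannot give a two-sided exact permutation p below 0.333. With fractions 6 and 7 also counted as non-polysomal, the SD at 8-10 hours was lower by 1.09 points, against 3.77 points with the fractions as given.

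**Figure D1:**
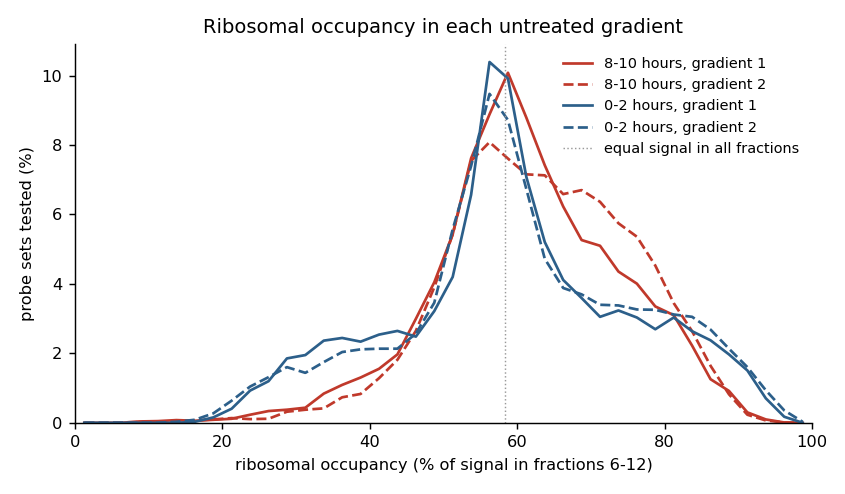
Share of the 10358 tested probe sets (y axis, percent) by ribosomal occupancy (x axis, percent of signal in fractions 6-12), 1 line for each gradient of 8-10 hours (red) and 0-2 hours (blue). The dotted line marks 58.3%, the occupancy of equal signal in all fractions. Both lines of 0-2 hours show a shoulder of low occupancies, below 40%, that is smaller in both lines of 8-10 hours.

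Of the 10358 probe sets, 2975 rose in Logit and 2158 fell at 8-10 hours relative to 0-2 hours (limma on all 6 untreated gradients, Benjamini-Hochberg adjusted p below 0.05), which is 28.7% and 20.8%, or 49.6% in either direction. Counted once per gene, 2548 of 8012 genes rose, or 31.8%, and 1663 fell, or 20.8%, which makes 52.6% in either direction. Everywhere below, rose and fell mean this test, and a difference is given in Logit units as 8-10 minus 0-2 hours with its SE from the fit. Differences over 1 were called for 1191 genes that rose and 693 that fell, and differences over 2 for 73 and 58 genes. Among called probe sets 8 had gradients that overlapped between the periods, and in all others both gradients of one age lay beyond both of the other. Such separation was found in 7313 of all 10358 tested probe sets. Since the calls were made on these values, it is not a separate check of them. Of all calls 58.0% were rises, and 49.3% were rises (2561 against 2636 falls) when each gradient was first centred on its median, under which the median difference was −0.08 rather than 0.04. With fractions 6 and 7 counted as non-polysomal, the differences of 45 of the 228 genes named below were over 1.5 times smaller, among them Idgf4 (−1.503), Idgf6 (−1.49) and SamDC (−1.09), and 18 of the 195 that passed did not pass then. These were mRpL28, eEF1delta, Tctp, TyrRS, Ald1, chif, cmet, Klp10A, betaTub60D, Taf10b, CycC, Spase22-23, Spase12, wun2, moon, strat, and ND-13B and Mlc2, whose differences changed sign (−0.15 and −0.19). The Logits of the 2 gradients correlated at r = 0.862 at 8-10 hours and at r = 0.937 at 0-2 hours, while the period means correlated at r = 0.351, across 8585 probe sets above the median signal in both periods.

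The probe sets that rose had low occupancies at 0-2 hours. Their median occupancy was 44.7% at 0-2 hours, 66.5% at 4-6 hours and 69.4% at 8-10 hours. For those that fell it was 79.6% at 0-2 hours, 62.5% at 4-6 hours and 59.2% at 8-10 hours, and those that passed neither way had 58.6% at 0-2 hours, 57.8% at 4-6 hours and 58.8% at 8-10 hours. Both called groups thus lay within a few points of their 8-10 hour level by 4-6 hours. Since the calls were made on these values, this is a description of them. By gradient region, the rising group gained a median of 10.9 percentage points of its signal in fractions 8-10, 6.93 points in fractions 11-12 and 1.34 points in fractions 6-7. The falling group fell by 8.51 points in fractions 8-10, by 6.96 points in fractions 11-12 and by 1.80 points in fractions 6-7, so in both groups most of the change lay in the heavier polysomes.

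**Figure D2:**
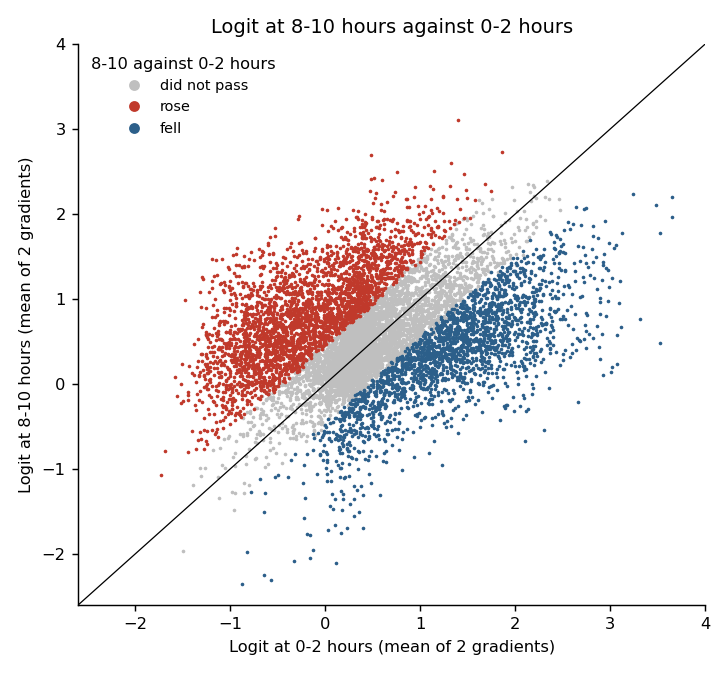
Logit at 8-10 hours (y axis) against Logit at 0-2 hours (x axis), each the mean of 2 gradients, for the 10358 tested probe sets. Red points rose (2975), blue points fell (2158) and grey points did not pass the test. The line marks equal values. The spread along the x axis is the wider of the pair.

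The 12 largest rises belonged to genes of different roles, with metabolic enzymes among them. Agpat2, an acyltransferase of phospholipid synthesis, had 79.1% and 83.0% of its signal in polysomes at 8-10 hours and 22.7% and 25.3% at 0-2 hours, a difference of 2.61 ± 0.19 (adjusted p = 2.0e-07). Desat1, the fatty acid desaturase that makes monounsaturated fatty acids, had 84.0% and 82.4% at 8-10 hours against 27.5% and 29.1% at 0-2 hours (2.53 ± 0.19). Men, the malic enzyme that supplies NADPH, had 78.6% and 83.8% at 8-10 hours and 26.1% and 24.3% at 0-2 hours (2.56 ± 0.19). In all 3 genes the polysomal share at 0-2 hours was below that of a flat profile and both gradients of 8-10 hours lay far above both of 0-2 hours. Prat, the first enzyme of purine synthesis, had 76.9% and 79.4% at 8-10 hours against 25.5% and 23.0% at 0-2 hours (2.42 ± 0.17). Yod1, a deubiquitinase, had 80.4% and 83.5% at 8-10 hours against 26.5% and 28.6% at 0-2 hours (2.49 ± 0.18). Other members of the 12 largest rises were l(3)72Dn, sofe, D19A and 4 genes known only by CG numbers, and their differences lay between 2.40 and 2.55. Levels in unfractionated RNA did not move one way among these genes: the log2 difference was −2.07 for Agpat2, −1.81 for Desat1, 1.04 for Men and −0.37 for Prat.

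The largest falls started from high occupancies at 0-2 hours. Pngl, a cytoplasmic peptide N-glycanase that strips glycans from misfolded proteins, had 32.3% and 35.1% at 8-10 hours and 88.4% and 89.8% at 0-2 hours, a difference of −2.78 ± 0.18 (adjusted p = 1.7e-07), with gradient signals of 8.36 at 8-10 hours and 10.4 at 0-2 hours. Pngl thus ended well below the flat-profile value of 58.3%. Idgf4 and Idgf6, secreted chitinase-like growth factors, went the same way but stayed above that value. Idgf4 had 70.1% and 66.2% at 8-10 hours against 96.2% and 96.8% at 0-2 hours (−2.55 ± 0.18). Idgf6 had 67.7% and 64.6% at 8-10 hours against 95.3% and 96.1% at 0-2 hours (−2.44 ± 0.18). For STUB1, a chaperone-linked ubiquitin ligase, and AGO3, a piRNA-binding Argonaute of the germ line, the mRNA was also far scarcer at 8-10 hours. STUB1 had 47.7% and 42.0% at 8-10 hours against 92.6% and 94.3% at 0-2 hours (−2.87 ± 0.19), with gradient signals of 6.32 at 8-10 hours and 10.6 at 0-2 hours. AGO3 had 52.9% and 53.9% at 8-10 hours against 94.6% and 95.8% at 0-2 hours (−2.87 ± 0.19), with gradient signals of 5.85 at 8-10 hours and 9.75 at 0-2 hours. The other named members of the 12 largest falls were mol, a maturation factor of NADPH oxidase, with a difference of −2.82 and gradient signals of 5.94 at 8-10 hours and 10.1 at 0-2 hours, and Bro, a partner of Runx proteins, with −2.49 and signals of 5.03 at 8-10 hours and 8.82 at 0-2 hours. The values of AGO3 at 8-10 hours are near those of a flat profile, and the part of background in them was not tested.

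**Figure D3:**
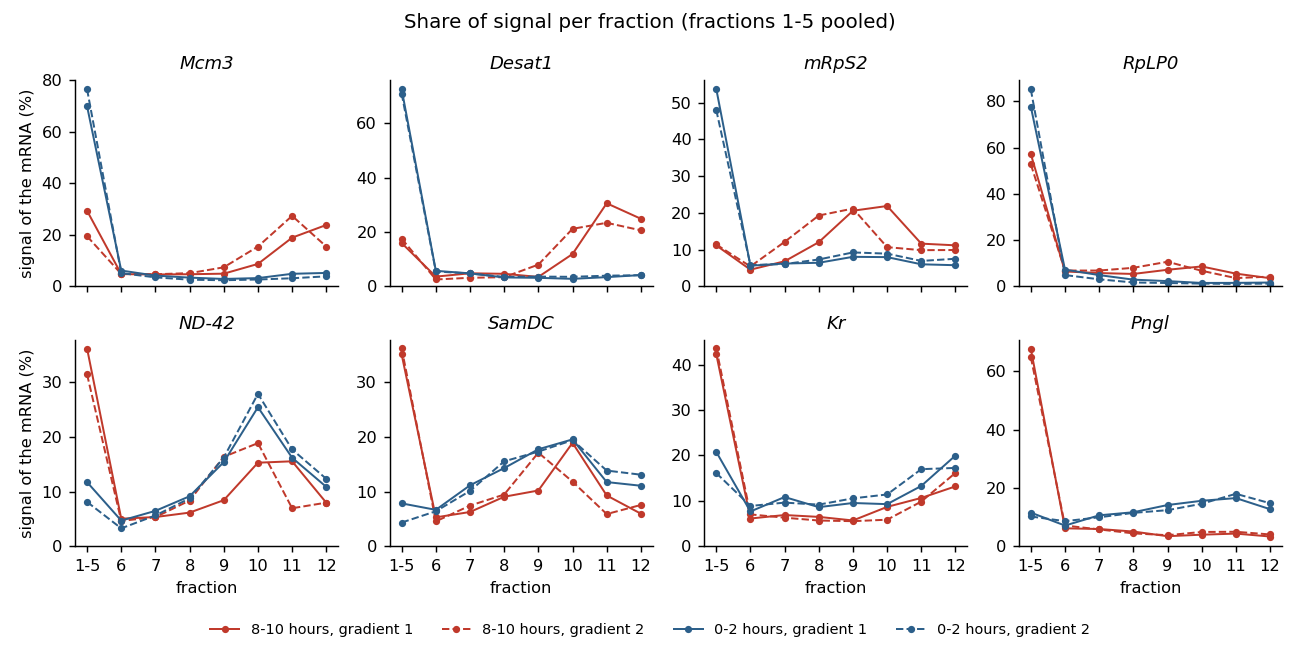
Share of each mRNA's signal (y axis, percent, a scale of its own in each panel) in the pool of fractions 1-5 and in fractions 6 to 12 (x axis) for 8 genes, with 1 line for each gradient of 8-10 hours (red) and 0-2 hours (blue). The share in the pool was lower at 8-10 hours for Mcm3, Desat1, mRpS2 and RpLP0. It was higher for ND-42, SamDC, Kr and Pngl. The gradients of 8-10 hours differ in some single fractions. In gradients 1 and 2, mRpS2 had 21.9% and 10.7% in fraction 10, and ND-42 had 8.4% and 16.4% in fraction 9.

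Genes were then followed by role, in 34 lists, each read against the 31.8% of all genes that rose, the 20.8% that fell and a median difference over all genes of 0.09. A list's occupancy is the median over its tested members. Members were matched through probe sets with 1 symbol, so that those read by probe sets with several symbols or none are not counted. The lists of cytoplasmic ribosomal proteins are far from complete, since the paper counts many more genes for each subunit. The lists were drawn up with earlier results of these data known, so that their counts describe these gradients.

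**Figure D4:**
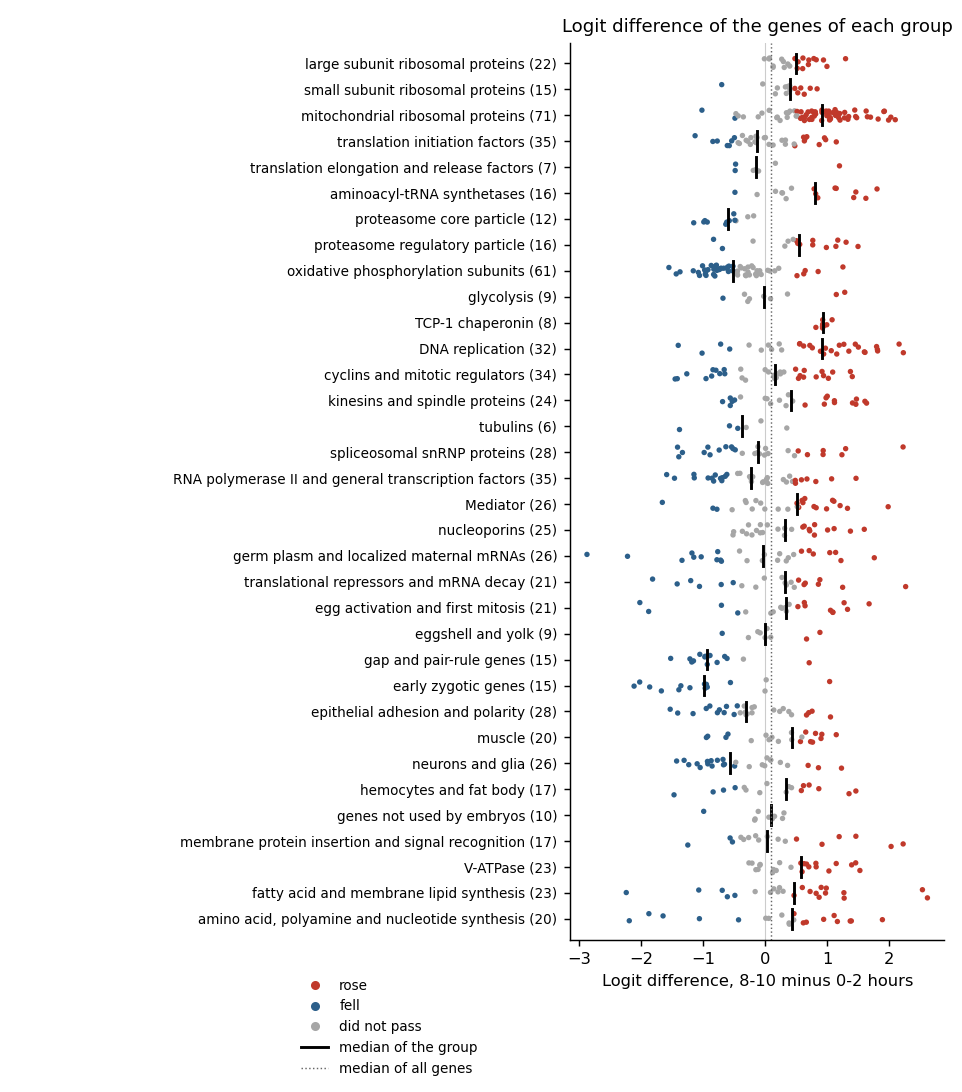
Logit difference, 8-10 minus 0-2 hours (x axis), of every tested gene in the 34 lists (rows, number of genes in parentheses). Red points rose, blue points fell, grey points did not pass, black bars are list medians and the dotted line is the median of all 8012 genes. Points of the mitochondrial ribosomal proteins and TCP-1 chaperonin lie mostly to the right, those of oxidative phosphorylation subunits, gap and pair-rule genes and early zygotic genes mostly to the left.

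Among the cytoplasmic ribosomal proteins that were matched, mRNAs had low occupancies at 0-2 hours and rose more often than they fell. At 8-10 hours their occupancies were still below the median over all genes, 61.7% and 64.4%. The paper, with more genes for each subunit, reports instead that they had come up to the average by then. Very bright probe sets were not left out here, and saturation of their signal was not tested. Of 22 tested proteins of the large subunit (24 matched to the array by a symbol of their own) 12 rose and 0 fell, with 13 up and 0 down at an unadjusted p below 0.05, and the median difference was 0.50. Their occupancy was 49.4% and 46.7% at 8-10 hours against 34.3% and 35.7% at 0-2 hours, and 40.3% at 4-6 hours. RpLP0, the acidic stalk protein, had the largest difference in the list, with 42.7% and 47.2% at 8-10 hours and 22.2% and 14.8% at 0-2 hours (1.30 ± 0.19, adjusted p = 5.0e-05). RpL10Ab had 52.0% and 52.9% at 8-10 hours against 30.9% and 27.0% at 0-2 hours (1.00 ± 0.17), and RpLP2, another stalk protein, had 49.7% and 48.1% at 8-10 hours against 29.9% and 24.7% at 0-2 hours (0.94 ± 0.18). RpL15, the member of highest signal that did not pass, had 56.4% and 54.3% at 8-10 hours and 47.3% and 50.1% at 0-2 hours (0.27 ± 0.17, adjusted p = 0.22). Of 15 tested proteins of the small subunit (16 matched) 6 rose and 1 fell, with a median of 0.40 and an occupancy of 50.7% and 47.4% at 8-10 hours against 34.6% and 40.6% at 0-2 hours. RpS27A, whose mRNA also encodes ubiquitin, had 55.4% and 53.4% at 8-10 hours against 34.3% and 33.8% at 0-2 hours (0.84 ± 0.17), and RpS20 had 46.1% and 41.3% at 8-10 hours against 26.1% and 28.5% at 0-2 hours (0.73 ± 0.18). RpS7 rose by 0.63, though not without gradient 1 of 0-2 hours, RpS10a, a dim member, fell by 0.70, and RpS18, the brightest that did not pass, differed by 0.40. The number of small subunit genes that rose was 3 without gradient 1 of 0-2 hours, and RpS10a did not pass without gradient 2 of 0-2 hours, without gradient 2 of 8-10 hours or with no filter on signal. Ribosomal protein genes have near copies and pseudogenes whose probes may share signal.

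Mitochondrial ribosomal proteins, encoded in the nucleus and needed to translate the mitochondrial genome, were the longest list in which most members rose. Of 71 tested, 53 rose and 2 fell, and the median difference was 0.91. Their occupancy was 80.1% and 79.0% at 8-10 hours, 73.9% at 4-6 hours and 55.0% and 68.5% at 0-2 hours, so both gradients of 8-10 hours lay above both of 0-2 hours although those of 0-2 hours were themselves wide apart. mRpS2 had 88.8% and 88.6% at 8-10 hours against 46.2% and 52.0% at 0-2 hours (2.10 ± 0.18, adjusted p = 4.3e-07). mRpL21 had 85.8% and 82.0% at 8-10 hours against 34.7% and 47.5% at 0-2 hours (2.03 ± 0.20), and mRpL46 had 84.7% and 81.1% at 8-10 hours against 35.4% and 44.8% at 0-2 hours (1.99 ± 0.19). mRpL33 went the other way, with 57.9% and 47.1% at 8-10 hours against 70.6% and 79.6% at 0-2 hours (−1.02 ± 0.21). The gain lay mainly in fractions 8-10, which held a median of 43.7% of these mRNAs at 8-10 hours and 32.02% at 0-2 hours. The other fall was mRpL28 (−0.48), and mRpS22, the brightest that did not pass, differed by −0.11. Without gradient 1 of 0-2 hours 37 members rose and 6 fell, with a median of 0.59, and without gradient 2 of 0-2 hours or gradient 2 of 8-10 hours 1 fell, which was not mRpL28.

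The oxidative phosphorylation subunits, whose proteins form the respiratory chain and ATP synthase in the same organelle, fell more often than they rose. Of 61 tested (76 matched) 5 rose and 31 fell, with a median of −0.52. Their occupancy was 68.3% and 66.9% at 8-10 hours against 74.5% and 78.5% at 0-2 hours, and at 4-6 hours it was lower than at either, 60.3%. ND-42 and ND-51, of complex I, and ND-MLRQ led the falls. ND-42 had 63.8% and 68.6% at 8-10 hours and 88.3% and 91.9% at 0-2 hours (−1.55 ± 0.19, adjusted p = 8.4e-06). ND-51 had 68.0% and 68.2% at 8-10 hours against 90.0% and 89.8% at 0-2 hours (−1.43 ± 0.17), and ND-MLRQ had 64.9% and 61.3% at 8-10 hours against 84.1% and 89.5% at 0-2 hours (−1.37 ± 0.20). Their levels in unfractionated RNA differed little, by 0.50, −0.06 and 0.29 on the log2 scale. SdhC, a membrane anchor of complex II, rose, with 76.6% and 75.7% at 8-10 hours against 44.7% and 50.7% at 0-2 hours (1.25 ± 0.18). ND-13B and SdhB rose by 0.86 and 0.65, SdhB not without gradient 1 of 0-2 hours or gradient 2 of 8-10 hours, and ATPsynF, the brightest that did not pass, differed by −0.44. The number that rose was 3 without gradient 1 of 0-2 hours and without either gradient of 8-10 hours.

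Other parts of the translation machinery moved both ways, and the larger direction among initiation factors was not stable (7 rises and 10 falls with Logits centred). Of 35 tested initiation factors (41 matched) 9 rose and 7 fell, with a median of −0.13. Among all genes 31.8% rose and 20.8% fell, so these counts do not set the list apart. The occupancy of initiation factors was 52.4% and 54.9% at 8-10 hours against 52.0% and 53.7% at 0-2 hours. eIF4E1, the cap-binding protein, had 56.2% and 57.0% at 8-10 hours against 32.1% and 34.7% at 0-2 hours (0.96 ± 0.17). eIF6, a factor that keeps ribosomal subunits apart, had 84.6% and 83.9% at 8-10 hours against 57.6% and 68.0% at 0-2 hours (1.15 ± 0.19), and eIF2Balpha, a subunit of the exchange factor of eIF2, rose by 0.98 ± 0.20. In the other direction eIF2A had 30.05% and 29.4% at 8-10 hours against 54.7% and 58.4% at 0-2 hours (−1.13 ± 0.17), while 5 subunits of the eIF3 scaffold, eIF3k, eIF3m, eIF3e, eIF3f1 and eIF3i, fell by 0.84, 0.77, 0.61, 0.58 and 0.54. These are 5 of the 7 falls in the list, whereas eIF3j rose by 0.67. The other tested eIF3 genes did not pass, with differences between −0.41 and −0.01. eIF4A, the helicase and brightest member that did not pass, differed by 0.06. Falls among initiation factors numbered 4 without gradient 2 of 0-2 hours or gradient 1 of 8-10 hours. Of 7 elongation and release factors 1 rose and 2 fell, with a median of −0.15. The riser was eRF3, the GTPase of termination, with 59.8% and 59.5% at 8-10 hours against 33.1% and 28.6% at 0-2 hours (1.198 ± 0.17). The falls were eEF1delta (−0.48) and Tctp (−0.47), and neither passed without gradient 2 of 0-2 hours or without either gradient of 8-10 hours. eEF5, the very abundant hypusinated factor, did not pass, with 57.0% and 54.1% at 8-10 hours and 59.5% and 60.9% at 0-2 hours (−0.19 ± 0.17, adjusted p = 0.41).

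Aminoacyl-tRNA synthetases, which charge tRNAs, rose in 9 of 16 genes and fell in 1, with a median of 0.80. Their occupancy was 61.0% and 72.4% at 8-10 hours against 47.8% and 53.3% at 0-2 hours, and the share in the heaviest fractions, 11-12, had a median of 34.7% at 8-10 hours and 20.3% at 0-2 hours. ArgRS had 83.8% and 88.9% at 8-10 hours against 46.6% and 56.2% at 0-2 hours (1.80 ± 0.20, adjusted p = 3.5e-06). TrpRS had 76.9% and 79.0% at 8-10 hours against 41.3% and 40.97% at 0-2 hours (1.62 ± 0.18), and LeuRS had 56.2% and 72.8% at 8-10 hours against 31.8% and 28.4% at 0-2 hours (1.46 ± 0.22). The fall was TyrRS (−0.49), which did not pass without gradient 2 of 0-2 hours or without either gradient of 8-10 hours, and IleRS, the brightest that did not pass, differed by 0.17.

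Among protein quality control complexes, the chaperonin was uniform and the proteasome was split between its parts. All 8 subunits of the TCP-1 chaperonin, the ring that folds actin and tubulin, rose, with differences between 0.82 and 1.08 and a median of 0.93, and 0 fell, also at an unadjusted p below 0.05. Their occupancy was 64.7% and 69.8% at 8-10 hours against 44.0% and 44.0% at 0-2 hours, and 42.1% of the signal lay in fractions 11-12 at 8-10 hours against 19.2% at 0-2 hours. CCT1 had 67.8% and 69.5% at 8-10 hours against 42.9% and 42.5% at 0-2 hours (1.08 ± 0.17, adjusted p = 8.0e-05), CCT8 had 64.6% and 68.1% at 8-10 hours against 42.7% and 41.6% at 0-2 hours (0.99 ± 0.18), and CCT3 had 56.6% and 57.7% at 8-10 hours against 35.3% and 32.5% at 0-2 hours (0.96 ± 0.17). All 8 subunits rose in every fit that was run, including those that left out a gradient. Of 12 tested subunits of the proteasome core (22 matched) 9 fell and 0 rose, with 10 down and 0 up at an unadjusted p below 0.05, and the median was −0.60. Their occupancy was 68.0% and 66.8% at 8-10 hours against 75.5% and 83.9% at 0-2 hours. Prosbeta7 had 64.9% and 61.0% at 8-10 hours against 77.4% and 85.9% at 0-2 hours (−0.99 ± 0.21). Prosalpha6 and Prosalpha2 fell by 1.15 and 0.97, and Prosbeta3, the brightest that did not pass, differed by −0.47. Without gradient 2 of 0-2 hours 4 core subunits fell and the median was −0.34. Of 16 tested subunits of the regulatory particle (18 matched), the cap that unfolds substrates, 10 rose and 2 fell, with a median of 0.54 and an occupancy of 76.5% and 80.8% at 8-10 hours against 64.3% and 66.0% at 0-2 hours. Rpn11, its deubiquitinase, had 78.9% and 81.9% at 8-10 hours against 47.1% and 48.9% at 0-2 hours (1.497 ± 0.18, adjusted p = 6.7e-06), and Rpn3 and Rpn2 rose by 1.30 and 1.17. The falls were Rpn12 (−0.83) and Rpt3R (−0.69), which did not pass without gradient 2 of 0-2 hours, and Rpn8, the brightest that did not pass, differed by 0.45. In unfractionated RNA the median log2 difference was −1.29 for the core and −0.53 for the regulatory particle.

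Most DNA replication genes rose while their mRNAs became scarcer. Of 32 tested, 22 rose and 4 fell in Logit, with a median of 0.92, and in unfractionated RNA 28 of the 32 were lower at 8-10 hours (adjusted p below 0.05, against 30.5% of all genes), with a median log2 difference of −1.39. Occupancy was 73.1% and 77.8% at 8-10 hours, 76.7% at 4-6 hours and 56.7% and 60.2% at 0-2 hours. Fen1, the flap endonuclease of lagging strand synthesis, had 77.6% and 81.7% at 8-10 hours against 30.3% and 29.2% at 0-2 hours (2.23 ± 0.18, adjusted p = 4.1e-07). All 5 matched subunits of the replicative helicase rose, Mcm2 by 1.35, Mcm5 by 1.15 and Mcm6 by 1.503. Mcm3 had 70.7% and 80.5% at 8-10 hours against 30.1% and 23.5% at 0-2 hours (2.16 ± 0.20), and dpa, the fly Mcm4, had 77.8% and 83.5% at 8-10 hours against 40.3% and 41.1% at 0-2 hours (1.81 ± 0.18). Cdc6, which loads that helicase on origins, fell, with 59.8% and 53.8% at 8-10 hours against 83.6% and 84.7% at 0-2 hours (−1.40 ± 0.18), and RPA3, the small subunit of the single-strand binding protein, had 73.9% and 73.0% at 8-10 hours against 87.0% and 89.7% at 0-2 hours (−1.01 ± 0.19). The largest subunit of the same protein, RPA1, rose, with 79.6% and 85.9% at 8-10 hours against 34.5% and 31.9% at 0-2 hours (2.29 ± 0.19). chif, the activator of the Cdc7 kinase, fell by 0.72, though not without gradient 1 of 0-2 hours, where 2 replication genes fell, and dup, the fly Cdt1, differed by −0.26 and did not pass.

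Cell division genes moved both ways, as did all genes, of which 31.8% rose and 20.8% fell. Of 34 cyclins and mitotic regulators 12 rose and 10 fell, with a median of 0.17, and 9 rose and 12 fell with Logits centred. fzr and fzy, both activators of the anaphase-promoting complex, went opposite ways. fzr, which acts in cells that leave the cycle, had 58.3% and 58.6% at 8-10 hours against 24.5% and 26.8% at 0-2 hours (1.40 ± 0.17, adjusted p = 8.1e-06). fzy, which acts in mitosis, had 80.7% and 83.4% at 8-10 hours against 94.7% and 95.2% at 0-2 hours (−1.41 ± 0.18, adjusted p = 1.1e-05). Cks30A, a Cdk subunit used in female meiosis, had 76.9% and 72.8% at 8-10 hours against 43.7% and 42.4% at 0-2 hours (1.37 ± 0.19), while CycB3, a mitotic cyclin, had 63.1% and 65.3% at 8-10 hours against 91.6% and 84.2% at 0-2 hours (−1.45 ± 0.21) and lok, the Chk2 checkpoint kinase, had 57.8% and 63.9% at 8-10 hours against 86.2% and 82.8% at 0-2 hours (−1.26 ± 0.18). CycJ rose by 1.09 at a gradient signal of 4.05 at 8-10 hours, and Bub3, the brightest that did not pass, differed by −0.37. Rises in this list numbered 7 without gradient 1 of 0-2 hours. Of 24 tested kinesins and spindle proteins (26 matched) 11 rose and 5 fell, with a median of 0.41. The chromosome-arm kinesin nod had 68.9% and 67.02% at 8-10 hours against 29.4% and 29.2% at 0-2 hours (1.63 ± 0.17), Grip128, of the gamma-tubulin ring, had 50.6% and 62.8% at 8-10 hours against 21.1% and 20.6% at 0-2 hours (1.61 ± 0.19), and feo, a midzone bundler, had 72.1% and 76.9% at 8-10 hours against 41.4% and 39.1% at 0-2 hours (1.47 ± 0.18). The largest falls were of Klp31E (−0.68), Klp10A (−0.56) and cmet (−0.56), the last pair not passing without gradient 1 of 0-2 hours, and msps, the brightest that did not pass, differed by 0.34. Falls numbered 3 without either gradient of 0-2 hours and 0 without gradient 1 of 8-10 hours, where the list's median was 0.64, and it was 0.21 without gradient 2 of 8-10 hours. Of 6 tested tubulins (7 matched) 3 fell and 0 rose, the same at an unadjusted p below 0.05, with a median of −0.37. betaTub56D, the general beta tubulin, had 64.0% and 65.8% at 8-10 hours against 87.1% and 88.9% at 0-2 hours (−1.38 ± 0.17), and it alone passed without gradient 1 of 0-2 hours or without either gradient of 8-10 hours. The other falls were betaTub60D (−0.57), with a gradient signal of 5.09 at 0-2 hours, and the maternal alphaTub67C (−0.44), which did not pass without gradient 2 of 0-2 hours either, and betaTub97EF differed by −0.31 and did not pass.

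In the nucleus, Mediator genes that rose outnumbered those that fell, while the general transcription and splicing machinery held more falls than rises, except without gradient 2 of 0-2 hours, where each of these lists had 8 rises and 8 falls. Mediator, the bridge between activators and RNA polymerase II, rose in 13 of 26 genes and fell in 3, with a median of 0.52 and an occupancy of 72.4% and 76.6% at 8-10 hours against 64.4% and 69.8% at 0-2 hours. MED30 had 80.6% and 85.9% at 8-10 hours against 41.04% and 40.8% at 0-2 hours (1.98 ± 0.19, adjusted p = 1.0e-06), and MED20 and MED19 rose by 1.33 and 1.21. MED26 had 42.7% and 49.8% at 8-10 hours against 84.4% and 78.9% at 0-2 hours (−1.65 ± 0.19), CycC and MED15 fell by 0.84 and 0.77, and MED21, the brightest that did not pass, differed by −0.07. Without gradient 2 of 8-10 hours 9 Mediator genes rose and 4 fell, with a median of 0.28. Nucleoporins rose in 10 of 25 genes and fell in 0, with 11 up and 2 down at an unadjusted p below 0.05 and a median of 0.31. Nup37 had 75.7% and 76.4% at 8-10 hours against 37.9% and 40.3% at 0-2 hours (1.598 ± 0.17), and Nup43 had 73.2% and 70.8% at 8-10 hours against 35.9% and 43.1% at 0-2 hours (1.37 ± 0.18). These are both Y-complex proteins of the pore scaffold. Nup188 rose by 1.11, and Nup35, the brightest that did not pass, differed by 0.31. Without gradient 2 of 8-10 hours 6 nucleoporins rose and 3 fell, 1 fell without either gradient of 0-2 hours, and 3 fell with Logits centred.

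Among 35 subunits of RNA polymerase II or of the general factors 7 rose and 13 fell, with a median of −0.22. Polr2H, a subunit shared by all 3 polymerases, had 88.2% and 87.1% at 8-10 hours against 56.6% and 67.5% at 0-2 hours (1.46 ± 0.19, adjusted p = 1.4e-05). Subunits of TFIID moved both ways: Taf5 had 78.1% and 84.8% at 8-10 hours against 58.6% and 62.2% at 0-2 hours (1.07 ± 0.19), Taf1, the largest subunit, had 62.0% and 68.6% at 8-10 hours against 92.1% and 88.0% at 0-2 hours (−1.58 ± 0.20), and Taf3 had 45.8% and 54.7% at 8-10 hours against 86.3% and 74.9% at 0-2 hours (−1.46 ± 0.23). Taf10b fell by 1.15, hay, a helicase of TFIIH, rose by 0.82, though not without gradient 2 of 8-10 hours, and Polr2G differed by −0.22 and did not pass. Rises numbered 3 without gradient 1 of 0-2 hours and 4 without either gradient of 8-10 hours or with Logits centred, and falls numbered 8 without gradient 2 of 0-2 hours. Spliceosomal snRNP proteins rose in 7 of 28 genes and fell in 11, with a median of −0.12. U2A, a U2 snRNP protein, had 89.2% and 85.4% at 8-10 hours against 39.4% and 46.5% at 0-2 hours (2.22 ± 0.19), SmD3, of the Sm ring, had 79.9% and 79.0% at 8-10 hours against 47.3% and 55.5% at 0-2 hours (1.30 ± 0.18), and Prp6, of the tri-snRNP, rose by 1.24 ± 0.21. Prp8, at the catalytic centre, had 62.3% and 75.2% at 8-10 hours against 91.8% and 87.8% at 0-2 hours (−1.39 ± 0.22), and Sf3b3 and Sf3b6, of the branch site complex, fell by 1.41 and 1.33. SmD2, the brightest that did not pass, differed by 0.01.

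Maternal genes did not share a direction. Of 26 germ plasm and localized maternal mRNAs 7 rose and 10 fell, with a median of −0.03. The median depended on the filter. With signal in the top 50% at both ages it was −0.29 (4 rose and 9 fell of 21), and with the top 25% it was 0.36 (4 and 3 of 10). With probe sets lower in fractions 1-5 with EDTA left out it was 0.24 (7 and 8 of 21). In unfractionated RNA 17 of the 26 were lower at 8-10 hours (30.5% of all genes were), with a median log2 difference of −1.92. gcl, needed to form pole cells, had 61.3% and 64.4% at 8-10 hours against 22.9% and 22.3% at 0-2 hours (1.76 ± 0.17, adjusted p = 1.5e-06), and ovo, a germ line transcription factor also used in the epidermis, had 53.4% and 63.1% at 8-10 hours against 31.8% and 26.7% at 0-2 hours (1.22 ± 0.19). bcd had 42.8% and 50.8% at 8-10 hours against 88.7% and 89.2% at 0-2 hours (−2.22 ± 0.20), with gradient signals of 5.46 at 8-10 hours and 10.6 at 0-2 hours. BicD, of the dynein transport complex, had 57.0% and 70.3% at 8-10 hours against 87.9% and 86.3% at 0-2 hours (−1.34 ± 0.20). capu, an actin nucleator, rose by 1.14, and tsu, the brightest that did not pass, differed by 0.34. osk, translated only at the posterior pole, had 30.5% and 28.6% at 8-10 hours against 59.1% and 54.6% at 0-2 hours (−1.15 ± 0.21), with gradient signals of 6.73 at 8-10 hours and 12.1 at 0-2 hours. The mRNA left at 8-10 hours was below the flat-profile value for bcd as well as osk, and it was further below for osk.

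Repressors of translation and mRNA decay factors rose in 7 of 21 genes and fell in 6, with a median of 0.32, and in 6 and 7 genes with Logits centred. Since 31.8% of all genes rose and 20.8% fell, moving both ways does not set this list apart. The DEAD-box helicase bel had 72.3% and 80.9% at 8-10 hours against 29.6% and 22.04% at 0-2 hours (2.26 ± 0.20, adjusted p = 7.4e-07). Fmr1, the fragile X protein, had 54.2% and 65.3% at 8-10 hours against 32.6% and 27.4% at 0-2 hours (1.25 ± 0.20), and Imp, an RNA-binding protein of localized mRNAs, had 63.7% and 70.6% at 8-10 hours against 48.7% and 43.2% at 0-2 hours (0.88 ± 0.18). smg, which directs decay of maternal mRNA, had 32.01% and 35.7% at 8-10 hours against 79.7% and 71.3% at 0-2 hours (−1.81 ± 0.19). Edc3, a decapping enhancer, had 42.8% and 53.7% at 8-10 hours against 79.3% and 79.3% at 0-2 hours (−1.42 ± 0.19), and twin, the CCR4 deadenylase, had 55.9% and 63.9% at 8-10 hours against 87.4% and 77.9% at 0-2 hours (−1.20 ± 0.22). Rga, the brightest that did not pass, differed by −0.15. The list's median was 0.501 without gradient 1 of 8-10 hours and 0.11 without gradient 2 of 8-10 hours. Genes of egg activation and the first mitosis rose in 9 of 21 cases and fell in 4, with a median of 0.34 and an occupancy of 53.6% and 59.6% at 8-10 hours against 33.2% and 38.4% at 0-2 hours. Hira, the histone chaperone that packages the paternal genome, had 63.9% and 75.4% at 8-10 hours against 32.2% and 28.5% at 0-2 hours (1.68 ± 0.20). plu, of the PNG kinase complex, had 56.1% and 48.8% at 8-10 hours against 85.7% and 92.0% at 0-2 hours (−2.02 ± 0.21), with gradient signals of 5.61 at 8-10 hours and 10.3 at 0-2 hours, and gwl, the Greatwall kinase, had 47.5% and 59.6% at 8-10 hours against 89.6% and 86.7% at 0-2 hours (−1.87 ± 0.20). mh and Pp2B-14D rose by 1.33 and 1.27, zld, the activator of the zygotic genome, fell by 0.703, though not without gradient 1 of 0-2 hours, and Nlp differed by 0.32 and did not pass. Falls in this list numbered 2 without gradient 1 of 0-2 hours, and 16 of the 21 genes were lower in unfractionated RNA at 8-10 hours. Among all genes 30.5% were lower in unfractionated RNA. Of 9 tested eggshell and yolk genes (20 matched) 2 rose and 1 fell, with a median of 0.00. fs(1)N, an eggshell protein, had 44.8% and 50.5% at 8-10 hours against 31.2% and 23.8% at 0-2 hours (0.88 ± 0.19), with a gradient signal of 4.64 at 8-10 hours against 9.73 at 0-2 hours. The other rise, clos (0.67), did not pass without gradient 2 of 0-2 hours or gradient 2 of 8-10 hours, fs(1)K10 fell by 0.69, and Cp38 differed by 0.09 and did not pass.

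The first zygotic genes were in the middle of the range at 8-10 hours and had high occupancies at 0-2 hours. Of 15 gap and pair-rule genes, which divide the embryo into segments, 13 fell and 1 rose, with a median of −0.93. Their occupancy was 59.7% and 60.0% at 8-10 hours, 60.4% at 4-6 hours and 79.5% and 80.1% at 0-2 hours. Kr had 57.7% and 56.4% at 8-10 hours against 79.2% and 83.9% at 0-2 hours (−1.21 ± 0.18, adjusted p = 4.4e-05), hkb had 51.8% and 53.5% at 8-10 hours against 83.0% and 84.1% at 0-2 hours (−1.52 ± 0.17), and tll had 59.7% and 64.0% at 8-10 hours against 82.8% and 85.3% at 0-2 hours (−1.18 ± 0.19). All 3 mRNAs were more abundant at 8-10 hours, by 3.11, 2.66 and 1.83 on the log2 scale, with gradient signals of 9.43, 8.11 and 7.63 there, so these low shares were not read at background. hb, the gap gene with a maternal mRNA that is repressed in the posterior of the egg, rose, with 59.7% and 57.1% at 8-10 hours against 42.0% and 39.6% at 0-2 hours (0.71 ± 0.19, adjusted p = 0.0051), and slp2 differed by −0.35 and did not pass. Of 15 early zygotic genes of cellularization, gastrulation and dorsal patterning 12 fell and 1 rose, with a median of −0.98. Their occupancy was 60.1% and 59.9% at 8-10 hours against 82.2% and 83.9% at 0-2 hours. Of the 11 with signal in the top 50% at both ages, 8 fell and 1 rose, with a median of −0.95. scw, a BMP ligand, had 60.1% and 66.4% at 8-10 hours against 90.2% and 95.6% at 0-2 hours (−2.11 ± 0.25). Sry-alpha and nullo, both needed for cellularization, had 52.8% and 59.9%, and 57.9% and 58.6%, at 8-10 hours, against 90.1% and 91.2%, and 88.4% and 91.3%, at 0-2 hours (−2.02 ± 0.18 and −1.86 ± 0.18). The gradient signal at 8-10 hours was 4.52 for scw and 4.56 for nullo, under the median of the array, and their shares there are near the flat-profile value. T48, a membrane protein of gastrulation, rose, with 62.5% and 64.2% at 8-10 hours against 39.2% and 36.6% at 0-2 hours (1.04 ± 0.18). fog, a secreted signal of the same process, did not pass, with a difference of −0.001. At 0-2 hours 8 of the 15 early zygotic genes were in the class of preferentially translated mRNAs defined below, and at 8-10 hours 0 were.

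Genes of neurons and glia fell more often than they rose. Muscle genes rose more often than they fell, as did all genes (31.8% rose and 20.8% fell). When only probe sets with signal in the top 50% at both ages were kept, muscle genes had 4 rises and 4 falls. Among 26 tested genes of neurons and glia (28 matched) 3 rose and 14 fell, with a median of −0.57 and an occupancy of 57.8% and 60.4% at 8-10 hours against 74.0% and 68.1% at 0-2 hours. comm, which controls axon crossing of the midline, had 50.0% and 53.0% at 8-10 hours against 78.4% and 78.3% at 0-2 hours (−1.23 ± 0.17), with gradient signals of 11.1 at 8-10 hours and 7.88 at 0-2 hours. loco, a regulator of G protein signalling in glia, had 52.4% and 58.9% at 8-10 hours against 86.9% and 80.5% at 0-2 hours (−1.42 ± 0.20). onecut, a neuronal transcription factor, had 25.1% and 24.9% at 8-10 hours against 54.2% and 55.9% at 0-2 hours (−1.30 ± 0.20), where its gradient signal was 2.98, so that the fall was measured from a background value. Rises included da, the partner of proneural proteins, with 56.4% and 64.5% at 8-10 hours against 37.1% and 25.3% at 0-2 hours (1.23 ± 0.21), and insc, which orients neuroblast divisions, with 58.1% and 55.3% at 8-10 hours against 41.1% and 30.6% at 0-2 hours (0.86 ± 0.19). sli, the midline repellent, rose by 0.69, though not without gradient 2 of 0-2 hours or gradient 2 of 8-10 hours and with a gradient signal of 4.70 at 0-2 hours, and l(1)sc, a proneural gene, differed by −0.47 and did not pass. Muscle genes rose in 8 of 20 tested cases (21 matched) and fell in 4, with a median of 0.43. Tm2, a tropomyosin, had 79.99% and 86.5% at 8-10 hours against 69.3% and 64.7% at 0-2 hours (0.91 ± 0.21), and TpnC73F, a troponin, had 79.4% and 80.1% at 8-10 hours against 57.6% and 65.4% at 0-2 hours (0.90 ± 0.18), with gradient signals at 0-2 hours of 5.30 and 4.65. Act87E, an actin of muscle, had 74.2% and 70.6% at 8-10 hours against 86.3% and 87.4% at 0-2 hours (−0.92 ± 0.18), and twi, the mesoderm determinant, had 67.3% and 74.9% at 8-10 hours against 87.9% and 84.9% at 0-2 hours (−0.95 ± 0.19). Mlc2, a myosin light chain, rose by 1.15 with a background signal of 3.67 at 0-2 hours, lmd, a zinc finger factor of myoblast fusion, fell by 0.63, though not without gradient 1 of 8-10 hours, and zfh1 differed by 0.43 and did not pass. Muscle falls numbered 2 without gradient 1 of 8-10 hours, and the list's median was 0.17 without gradient 2 of 8-10 hours and 0.06 with signal in the top 50% at both ages.

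Hemocyte and fat body genes rose in 6 of 17 tested cases (22 matched) and fell in 4, with a median of 0.34, and in 5 genes each with Logits centred. These counts are near the shares of all genes, of which 31.8% rose and 20.8% fell. PPO1, a prophenoloxidase of crystal cells, had 88.4% and 85.3% at 8-10 hours against 63.5% and 57.7% at 0-2 hours (1.46 ± 0.19), and crq, an engulfment receptor, had 69.5% and 71.5% at 8-10 hours against 37.8% and 38.7% at 0-2 hours (1.35 ± 0.17). srp, the GATA factor of both tissues, had 55.1% and 54.2% at 8-10 hours against 83.9% and 83.9% at 0-2 hours (−1.47 ± 0.18, adjusted p = 7.4e-06), and ush, its cofactor, had 48.4% and 56.3% at 8-10 hours against 74.4% and 68.9% at 0-2 hours (−0.84 ± 0.19). Glt, a glutactin, rose by 0.87 at a gradient signal of 4.98 at 0-2 hours, gcm, a factor of glia and hemocytes, fell by 0.67, though not without gradient 1 of 0-2 hours, and Col4a1, a collagen, differed by 0.38 and did not pass. The larger direction was not stable. Without gradient 2 of 8-10 hours 3 rose and 5 fell, with a median of 0.06, and without gradient 1 of 0-2 hours 4 rose and 2 fell. Without gradient 1 of 8-10 hours the median was 0.15. Genes of epithelial adhesion and polarity rose in 4 of 28 cases and fell in 11, with a median of −0.31, although 23 of them were more abundant at 8-10 hours in unfractionated RNA (26.5% of all genes were). dlg1 and scrib, partners in basolateral polarity, had 56.1% and 61.7%, and 65.8% and 69.9%, at 8-10 hours, against 90.3% and 82.5%, and 91.0% and 88.1%, at 0-2 hours (−1.53 ± 0.22 and −1.41 ± 0.18). baz, the apical Par-3 protein, had 74.1% and 75.4% at 8-10 hours against 52.7% and 48.9% at 0-2 hours (1.05 ± 0.17). Nrx-IV, of septate junctions, and p120ctn, of adherens junctions, rose by 0.76 and 0.703, p120ctn not without gradient 1 of 0-2 hours. LanA, a laminin, fell by 1.16, and crb differed by −0.21 and did not pass. Falls numbered 6 without gradient 1 of 0-2 hours or gradient 1 of 8-10 hours, where the list's medians were −0.18 and −0.17. Of 125 receptor and other genes that embryos do not use only 10 passed the signal filter, 0 rose and 1 fell, the same at an unadjusted p below 0.05. The faller was Or43b, an odorant receptor, with 48.5% and 58.4% at 8-10 hours and 77.5% and 73.5% at 0-2 hours (−0.99 ± 0.19) at gradient signals of 4.55 at 8-10 hours and 5.56 at 0-2 hours, and the list's occupancy was 60.1% and 58.2% at 8-10 hours and 59.3% and 58.3% at 0-2 hours, next to the flat-profile value. Acp95EF, the brightest of them, differed by 0.28 and did not pass.

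Genes of secretion and metabolism moved both ways. Of 17 genes of membrane protein insertion and signal recognition 6 rose and 3 fell, with a median of 0.04. These counts are near the shares of all genes, of which 31.8% rose and 20.8% fell. The rises were led by the signal recognition particle and its receptor. Srp72 had 80.4% and 84.6% at 8-10 hours against 33.2% and 34.7% at 0-2 hours (2.22 ± 0.19, adjusted p = 4.7e-07), Srp68 had 72.8% and 80.1% at 8-10 hours against 30.1% and 30.2% at 0-2 hours (2.03 ± 0.19), and SrpRalpha had 66.8% and 68.0% at 8-10 hours against 33.3% and 31.5% at 0-2 hours (1.46 ± 0.17). All 3 falls were of signal peptidase subunits, and of these Spase25 had 82.3% and 79.3% at 8-10 hours against 93.0% and 94.2% at 0-2 hours (−1.24 ± 0.18). Spase22-23 and Spase12 fell by 0.56 and 0.53, and twr, the brightest that did not pass, differed by −0.34. Without gradient 2 of 0-2 hours or without gradient 1 of 8-10 hours, 1 fall passed. The V-ATPase, the proton pump of acidic organelles, rose in 12 of 23 tested genes (31 matched) and fell in 0, with 13 up and 0 down at an unadjusted p below 0.05 and a median of 0.58. Vha55 and Vha44, of the cytoplasmic part that hydrolyses ATP, had 65.9% and 63.2%, and 52.3% and 56.1%, at 8-10 hours, against 28.9% and 27.8%, and 23.0% and 20.2%, at 0-2 hours (1.53 ± 0.18 and 1.46 ± 0.18), and VhaAC39-1 rose by 1.39. The proteolipid Vha16-1 did not pass, with 48.6% and 50.2% at 8-10 hours and 51.3% and 54.9% at 0-2 hours (−0.15 ± 0.17, adjusted p = 0.53). Without gradient 1 of 8-10 hours 1 V-ATPase gene fell.

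Fatty acid and membrane lipid synthesis rose in 12 of 23 tested genes (24 matched) and fell in 5, with a median of 0.47 and an occupancy of 60.7% and 64.4% at 8-10 hours against 45.7% and 51.1% at 0-2 hours. Besides Agpat2 and Desat1, ACC, which makes malonyl-CoA, had 45.3% and 61.7% at 8-10 hours against 28.2% and 21.0% at 0-2 hours (1.27 ± 0.22). wun, a lipid phosphate phosphatase that steers migrating germ cells, had 57.6% and 60.3% at 8-10 hours against 93.6% and 92.5% at 0-2 hours (−2.24 ± 0.17, adjusted p = 2.9e-07) at like gradient signals of 7.68 at 8-10 hours and 8.02 at 0-2 hours. wun2, of the same family, fell by 1.07, Spt-I, of sphingolipid synthesis, fell by 0.69, though not without gradient 2 of 0-2 hours, and lace differed by 0.23 and did not pass. Falls numbered 3 without either gradient of 0-2 hours and without gradient 1 of 8-10 hours. Amino acid, polyamine and nucleotide synthesis rose in 9 of 20 tested genes (22 matched) and fell in 5, with a median of 0.43. The polyamine enzymes SamDC and Sms, which act in sequence, fell together: SamDC had 65.0% and 63.8% at 8-10 hours against 92.2% and 95.7% at 0-2 hours (−2.19 ± 0.21), and Sms had 57.7% and 61.4% at 8-10 hours against 91.5% and 89.5% at 0-2 hours (−1.87 ± 0.19). pug, a folate enzyme, had 62.9% and 72.3% at 8-10 hours against 91.6% and 91.6% at 0-2 hours (−1.64 ± 0.19). Gs1, a glutamine synthetase, had 71.1% and 72.9% at 8-10 hours against 27.6% and 28.4% at 0-2 hours (1.89 ± 0.17), and ras, the IMP dehydrogenase of guanine nucleotide synthesis, had 48.6% and 56.7% at 8-10 hours against 24.2% and 19.4% at 0-2 hours (1.39 ± 0.19). Nmdmc, a mitochondrial folate enzyme, rose by 1.37, and Got2 differed by 0.27 and did not pass. Of 9 glycolytic enzymes 7 were less abundant at 8-10 hours (30.5% of all genes were), with a median log2 difference of −3.09. In Logit 2 of the 9 rose and 1 fell, with a median of −0.02. Hex-A, the hexokinase at the entry of the pathway, had 57.4% and 65.0% at 8-10 hours against 33.0% and 28.2% at 0-2 hours (1.28 ± 0.19), and Pgi, which takes the second step, had 52.6% and 60.4% at 8-10 hours against 29.6% and 28.8% at 0-2 hours (1.15 ± 0.18). Eno did not pass, with 53.9% and 51.1% at 8-10 hours and 57.7% and 61.1% at 0-2 hours (−0.28 ± 0.18, adjusted p = 0.23). The fall was Ald1 (−0.68), which did not pass without gradient 1 of 0-2 hours or gradient 2 of 8-10 hours.

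Probe sets were also sorted into classes, with limits taken from the study's methods, by the mean Logit of a period and the SD of the log2 signal over its gradient fractions. The methods do not state the base of the logarithm, and the natural one was used here. The paper's removal of mRNAs by EDTA was not applied, so these classes can differ from those of the paper. A preferentially translated mRNA has a Logit above 1.5 and an SD above 0.5, and a preferentially untranslated one a Logit below −0.15 and an SD below 1. By these limits 566 tested probe sets were translated and 612 untranslated at 8-10 hours, against 1093 translated and 1754 untranslated at 0-2 hours. Most of the early members joined the middle: of those untranslated at 0-2 hours 1537 were in neither class at 8-10 hours and 186 were still untranslated, and of those translated at 0-2 hours 921 were in neither class and 155 were still translated. A change of class from end to end was rare. At 8-10 hours 31 probe sets were translated that had been untranslated at 0-2 hours, and 17 were untranslated that had been translated, and since these sets are defined by their Logits they are described without a test of their own.

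The 31 include mitochondrial genes (mRpL10, mRpL21, mRpL46, the cytochrome oxidase assembly factor Scox and the cardiolipin synthase CLS), genes of the endoplasmic reticulum and lipid handling (Srp72, Der-1 of protein retrotranslocation, Mtp of lipid transfer, Inos of inositol synthesis, Desat1) and nuclear genes (RPA1, U2A, MED30, the cap methyltransferase Cmtr1 and the kinetochore protein Mis12). Among the others with a gene name were strat, Kr-h2, nesd, the sorting nexin Snx16 and Yod1. Mtp had 82.0% and 91.9% at 8-10 hours against 43.6% and 42.8% at 0-2 hours, Der-1 had 82.1% and 83.3% at 8-10 hours against 41.9% and 41.02% at 0-2 hours, and Mis12 had 85.0% and 87.4% at 8-10 hours against 32.2% and 41.9% at 0-2 hours. The nucleoside transporter Ent2, with 85.7% and 82.4% at 8-10 hours against 43.5% and 43.6% at 0-2 hours, also became more abundant, by 1.66 on the log2 scale. The 17 include the ubiquitin ligase STUB1, Pngl, the insulator protein Elba2, Crag, a Rab10 exchange factor, Saf-B, an RNA-binding nuclear scaffold protein, MED26, RluA-2, Smyd4-1 and moon. Elba2 had 43.5% and 40.8% at 8-10 hours against 85.7% and 89.9% at 0-2 hours, with gradient signals of 6.21 at 8-10 hours and 10.8 at 0-2 hours. Saf-B had 35.0% and 53.2% at 8-10 hours against 89.1% and 84.6% at 0-2 hours, with gradient signals of 9.59 at 8-10 hours and 9.10 at 0-2 hours, so its move did not come with a loss of signal.

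Different probe sets of a gene can read different transcripts, and where at least 2 of them passed they usually moved alike. Of 512 genes with 2 or more tested probe sets, 156 had at least 2 that passed and all of those went the same way. Another 26 had probe sets that passed in both directions. In the rest of the 512 fewer than 2 passed, so these genes do not show whether probe sets moved alike. The gene lola, which makes many transcription factors by alternative splicing, had 1633422_a_at at 68.8% and 70.3% at 8-10 hours against 31.0% and 31.5% at 0-2 hours (1.61, adjusted p = 3.7e-06). Its probe set 1627324_at had 48.1% and 58.3% at 8-10 hours against 86.5% and 83.8% at 0-2 hours (−1.62, adjusted p = 5.7e-06), and the brightest one, 1625768_s_at, had 58.4% and 60.2% at 8-10 hours against 74.1% and 71.9% at 0-2 hours (−0.62). Thus different lola probe sets occupied opposite ends of the range at 0-2 hours. For pip, the sulfotransferase of dorsoventral patterning, 1637043_at had 94.2% and 93.1% at 8-10 hours against 60.5% and 62.9% at 0-2 hours (2.22), with gradient signals of 6.98 at 8-10 hours and 3.57 at 0-2 hours, and 1630919_at had 26.1% and 27.5% at 8-10 hours against 56.6% and 60.5% at 0-2 hours (−1.35), with gradient signals of 7.85 at 8-10 hours and 4.44 at 0-2 hours. At 0-2 hours both values are background values near the flat profile, so neither direction is taken as a change. In RpL3 the bright probe set 1630270_s_at, with a gradient signal of 12.3, had 50.4% and 52.3% at 8-10 hours against 36.1% and 32.5% at 0-2 hours (0.70), and the dim 1634685_at, with a signal of 4.44, had 14.4% and 17.6% at 8-10 hours against 52.4% and 52.6% at 0-2 hours (−1.76). The signal of the dim probe set was 4.91 at 8-10 hours and 3.97, below the median, at 0-2 hours. The RpL3 probe set 1625889_at also fell (−0.77, adjusted p = 0.0025). It had 31.0% and 30.2% at 8-10 hours against 45.0% and 52.5% at 0-2 hours. Its gradient signals, 8.05 at 8-10 hours and 5.10 at 0-2 hours, were above the median at both ages. The transcripts that these probe sets read were not resolved here.

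Changes in occupancy ran weakly against changes in abundance. Across 8585 probe sets above the median signal in both periods, the Logit difference and the log2 difference in unfractionated RNA had r = −0.215 and a Spearman rank correlation of −0.238, as a description across probe sets, which are not independent. For the 1584 probe sets whose mRNA was lower by 1 to 3 on the log2 scale at 8-10 hours, the median Logit difference was 0.54 and 52.0% rose. For the 497 whose mRNA was higher by more than 3, the median was −0.47, with 15.1% that rose and 49.5% that fell, and their median occupancy was 63.5% at 8-10 hours against 72.8% at 0-2 hours. The 251 whose mRNA was lower by more than 3 had a median of 0.18, and the 5060 within 1 either way had 0.03. The trend was therefore not the same at both ends, and 26.8% of the probe sets within 1 either way rose and 18.5% fell. TCP-1 chaperonin and DNA replication genes are among those that rose with a lower mRNA level, and ND-42, ND-51 and MED26 among those that fell with an abundance difference under 1.

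With EDTA, which dismantles polysomes, the medians of the called groups did not show the Logit differences between the periods. In the single EDTA gradient of each period, whose arrays the test did not use, the median Logit difference was −0.15 for the probe sets that rose in untreated gradients, −0.14 for those that fell and −0.04 for the others. It was above 0 for 26.42% of the risers, 28.0% of the fallers and 45.0% of the others. Across 8585 probe sets the differences with and without EDTA had r = −0.029, again as a description. With 1 EDTA gradient at each age there is no replicate check of these values. The medians do not speak for each probe set. When probe sets lower in fractions 1-5 with EDTA at either age were left out, 9848 remained. Of these 2781 rose and 1960 fell. That fit kept 213 of the 228 named genes, and the others are given above without this limit. The paper left out mRNAs that EDTA did not release from heavy fractions.

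**Figure D5:**
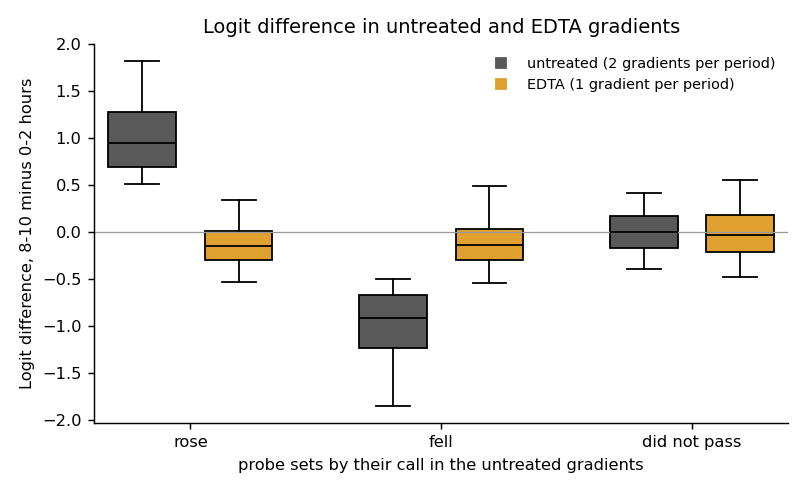
Logit difference, 8-10 minus 0-2 hours (y axis), of probe sets that rose, fell or did not pass in untreated gradients (x axis), in untreated gradients (grey, 2 per period) and EDTA gradients (orange, 1 per period). Boxes span the quartiles with the median as a line, and whiskers span the 5th to 95th percentile. The grey boxes are apart because the calls were made on those values, while the orange medians of risers and fallers are −0.15 and −0.14.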

How the data were processed

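Embryo lysates were spun on sucrose gradients and collected in 12 fractions. Equal volumes of the pooled RNA of fractions 1-5 and of each single fraction were labelled and hybridised to GeneChip Drosophila Genome 2.0 arrays. The deposited values are log2 expression measures that the authors computed and normalized with robust multichip average (RMA), and the step that equalises arrays removes differences in total RNA between fractions. They lay between 2.46 and 14.3, with array medians between 4.55 and 5.13. Samples were grouped by their titles, which call the 2 gradients of a period biological replicates. Adjusted p-values therefore measure the spread between these gradients, and their number limits the precision.

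The table held 18952 probe sets, of which 183 were controls. The platform annotation gave 1 gene symbol for 13647, several for 402 and none for 4903, and named 11982 genes. From the deposited log2 values the Logit of each gradient was computed as described, and the 10358 probe sets with a mean gradient signal in the top 50% in at least 1 of the 3 periods entered a fit over the 6 untreated gradients (limma 3.58.1, R 4.3.3), with period as the group and Benjamini-Hochberg adjustment over all of them. Unfractionated RNA, 2 arrays per period, entered a limma fit of log2 values over the same probe sets. EDTA gradients, 1 per period with 4 pools, were given without a test. A gene was represented by its tested probe set of highest mean signal. The fit was tested on simulated data before use.

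Named genes are the 12 largest rises and 12 largest falls among genes with signal in the top 50% at both ages and gradients that do not overlap, in each list up to 3 largest rises, up to 3 largest falls and the brightest member that did not pass, and genes that changed class from end to end, with unnamed CG numbers only counted. Genes outside this rule, which are osk, some subunits of the helicase and of eIF3, the probe sets of lola, pip and RpL3 and those in the closing observations, were chosen after their values were seen. The gene lists, the named rule and the members were chosen with earlier results of these data known. Alternatives changed the polysomal fractions, the summing of signal, centring, the gradients fitted, the filter, the EDTA exclusion, the prior variance, the replicate block and the gradients left out. Sequence and length features of the called genes were not analysed here. 1 gene that the rule selected is not reported here.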

Additional observations from a re-analysis of the deposited data

How the results depend on the processing

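Of the 228 genes named with a test 195 passed. Of these, 26 lost their call without at least 1 gradient and 33 under at least 1 alternative, and 2, ND-13B (−0.149) and Mlc2 (−0.19), changed sign with fractions 6 and 7 counted as non-polysomal. Of the 33 that did not pass, 11 passed under some alternative. The precision is limited by 2 gradients per period and, for dim probe sets, by signals near background, which draw occupancy to the flat-profile value. Without 1 gradient the number of probe sets that rose lay between 2403 (without gradient 1 of 0-2 hours) and 2908, against 2975, and the number that fell between 1727 (without gradient 1 of 8-10 hours) and 2122, against 2158. The SD of occupancy at 8-10 minus 0-2 hours then lay between −3.94 and −3.60 points, and the median Logit difference of the gradients between 0.0791 and 0.178, against 0.128. The SD difference was −3.77 points, −1.09 with fractions 6 and 7 counted as non-polysomal and −4.70 with only probe sets in the top 50% of signal at both ages. With the top 25% at both ages, 1280 rose and 1084 fell of the fewer probe sets tested, and 25 of the counts over lists moved by over 1.5 times. Centred Logits gave 2561 rises and 2636 falls and moved the median difference over genes from 0.09 to −0.04. Under the alternatives apart from these, the left-out gradients, the top 25% and the crossed pairing, at most 2988 rose and at least 1946 fell, the second with fractions 6 and 7 counted as non-polysomal.

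The gradient numbers were not taken as pairs, since deviations of same-numbered gradients correlated at −0.29 between 0-2 and 8-10 hours, −0.04 between 0-2 and 4-6 hours and −0.09 between 4-6 and 8-10 hours. With the replicate block 2900 rose and 2099 fell. A crossed pairing, chosen after seeing the data, gave 3095 and 2261.

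With fractions 6 and 7 counted as non-polysomal, 16 counts over lists moved by over 1.5 times, among them falls of initiation factors (3), adhesion and polarity genes (6) and V-ATPase (1), and rises of spliceosomal snRNP proteins (4), RNA polymerase II and general factors (4) and muscle genes (5). Medians were then 0.61 for mitochondrial ribosomal proteins, −0.20 for tubulins, −0.15 for adhesion and polarity genes, 0.17 for muscle genes and −0.35 for neurons and glia.

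Differences of genes that did not pass changed sign as follows. With fractions 6 and 7 counted as non-polysomal they were 0.09523 for mRpS22, −0.4106 for SmD2, −0.1148 for tsu, 0.03261 for fog and 0.01006 for l(1)sc. With centred Logits they were −0.06524 for eIF4A, −0.1203 for SmD2 and −0.03677 for Cp38, and SmD2 had −0.0692 with mean log2 signals. Without 1 gradient the differences lay between −0.2889 and 0.06848 for mRpS22, −0.09958 and 0.4366 for IleRS, −0.1137 and 0.13 for SmD2, −0.2689 and 0.1276 for MED21, −0.4433 and 0.1455 for Rga, −0.03406 and 0.2172 for Cp38, −0.0618 and 0.06046 for fog, and −0.4546 and 0.03592 for crb. The cause was not tested. Sequence and length features could not be tested here.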

Other observations

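Genes whose mRNA appeared between the ages allow a look at occupancy in newly made mRNA at 8-10 hours. There were 64 genes with a gradient signal in the top 25% at 8-10 hours (above 7.73) and below the median at 0-2 hours (4.64), where their occupancies are background values. Their median occupancy at 8-10 hours was 61.2% and 65.0% in the 2 gradients, against 65.1% and 68.5% for the 3834 genes in the top 25% at 8-10 hours that were above the median at 0-2 hours. Occupancy above 80% was found in 12.5% and 17.2% of the 64 genes and in 12.4% and 13.9% of the others, and occupancy below 40% in 6.25% and 6.25% of the 64 genes and in 3.60% and 1.75% of the others. No test was made of these shares.

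The genes with the 6 highest and 6 lowest mean occupancies of the 64 at 8-10 hours are given here, a choice made after the values were seen. The highest were CG4115 with 90.3% and 90.6%, CG18088 with 88.6% and 92.0%, Cyp6a8, a cytochrome P450, with 85.8% and 89.0%, Cyt-b5-r, a cytochrome b5-related protein, with 84.8% and 90.0%, CG3246 with 82.3% and 89.6%, and Spn43Aa, a serpin, with 82.3% and 83.8%. The lowest was cas, a zinc finger factor of late neuroblasts, with 17.5% and 19.8% at 8-10 hours and gradient signals of 8.70 at 8-10 hours and 3.64 at 0-2 hours. After it came the probe set of pip with the highest mean signal, with 26.1% and 27.5%, CRMP, with 27.9% and 32.1%, CG31038, with 32.5% and 50.3%, Awh, a LIM-homeodomain factor, with 46.7% and 38.7%, and fng, a modifier of Notch, with 40.7% and 45.3%. The gradients of CG31038 differed more than those of the other 11 genes.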
